A study of Mus musculus with 27 samples.

Results

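Mesenchyme of limb bud organoids grown from mouse embryonic stem (ES) cells was compared with the tail bud (TB) of mouse embryos. The comparison used every RNA-seq library of 3 of the 9 groups of the study, namely ES-FLB (forelimb type, n = 3), ES-HLB (hindlimb type, n = 3) and TB (n = 3), so 9 of 27 libraries, which were taken by their labels and not by any measured value. Both organoid types came from 1 ES cell line, EB5 with 1 allele of a Hand2::GFP reporter, and both received BMP4 and Matrigel on culture days 1 to 5. Later both were given LDN193189, which blocks BMP receptors, and then Wnt3, a step that the labels place within days 7 to 9. The methods instead put LDN193189 on days 6.5 to 7 and Wnt3 on days 7 to 8, followed by medium free of both. By the methods, the medium of both types also held hydrocortisone, a glucocorticoid, and methylcellulose from day 6.5 to day 9. Forelimb organoids also had retinoic acid (RA) on days 5 to 6, and hindlimb organoids an antagonist of RA on days 6 to 6.5. On day 9 they were dissociated with trypsin and the GFP-positive cells were sorted by FACS from many aggregates. TB was cut from untreated Slc:ICR embryos at E10.5, from 3 embryos according to the methods, with no sorting named. Strain, culture, dissociation and sorting therefore separate both ES-LB groups from TB together with the tissue, and these cannot be told apart here. The methods do not give the sex of the ES cell line or of the embryos, which may differ too. The methods mention independent experiments for other assays of sorted cells but do not say whether the 3 libraries of a type came from separate differentiations, so p-values measure the spread between these libraries, which may be technical.

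The limb bud mesenchyme and the tail bud are both built largely of mesoderm. Limb mesenchyme arises from the lateral plate, where Hand2, Prrx1 and the T-box genes Tbx5 (forelimb) and Tbx4 (hindlimb) act early. The tail bud holds the axial progenitors that lengthen the body, which express T (brachyury) under Wnt and FGF signals. Their descendants form presomitic mesoderm, where a clock of Notch genes paces the somites, as well as the caudal neural tube, the notochord and the tail gut. Dissected TB can thus contain all of these with skin, vessels and blood, whereas the sorted cells were selected for 1 lineage.

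Values are counts per 1000000 reads (CPM) as the authors deposited them, scaled here between libraries by a trimmed mean of log ratios. The 9 libraries held 6569871 to 8443094 reads on genes, at which 3 reads, the floor of detection used here, are worth 0.362 to 0.447 CPM. Such a floor allows for counting error alone. The test, limma, was run on log2(CPM + 0.5), a scale that understates the change of low genes, over the 13784 genes that reached 1 CPM in at least 3 of the 9 libraries. A gene under 1 CPM in every library of 1 side entered through the other side alone, so this filter largely fixed its direction. Replicates had r of 0.993 to 0.995 across genes, and the first principal component, with 83.0% of the variance, placed all 6 ES-LB libraries on one side and TB on the other.

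At an adjusted p below 0.05, 10876 of the 13784 genes (78.9%) differed between the mean of both ES-LB types and TB, 5476 higher (39.7%) and 5400 lower (39.2%). A p alone therefore separates few genes from the rest, and the counts given from here on also ask for a change of 2-fold or more, which 1773 genes (12.9%) met as higher and 1354 (9.82%) as lower. The libraries of both sides did not overlap for 9268 genes (67.2%). Taken separately, ES-FLB had 1870 genes higher (13.6%) and 1515 lower (11.0%) than TB, and ES-HLB 1714 higher (12.4%) and 1301 lower (9.44%). By the adjusted p alone, ES-FLB had 76.2% of genes called (38.7% higher, 37.5% lower) and ES-HLB 74.6% (36.9% higher, 37.7% lower). These comparisons share the TB libraries. The median log2 fold change over all genes tested was 0.0030 for the ES-LB mean, against which the medians of the gene lists are set.

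**Figure D1:**
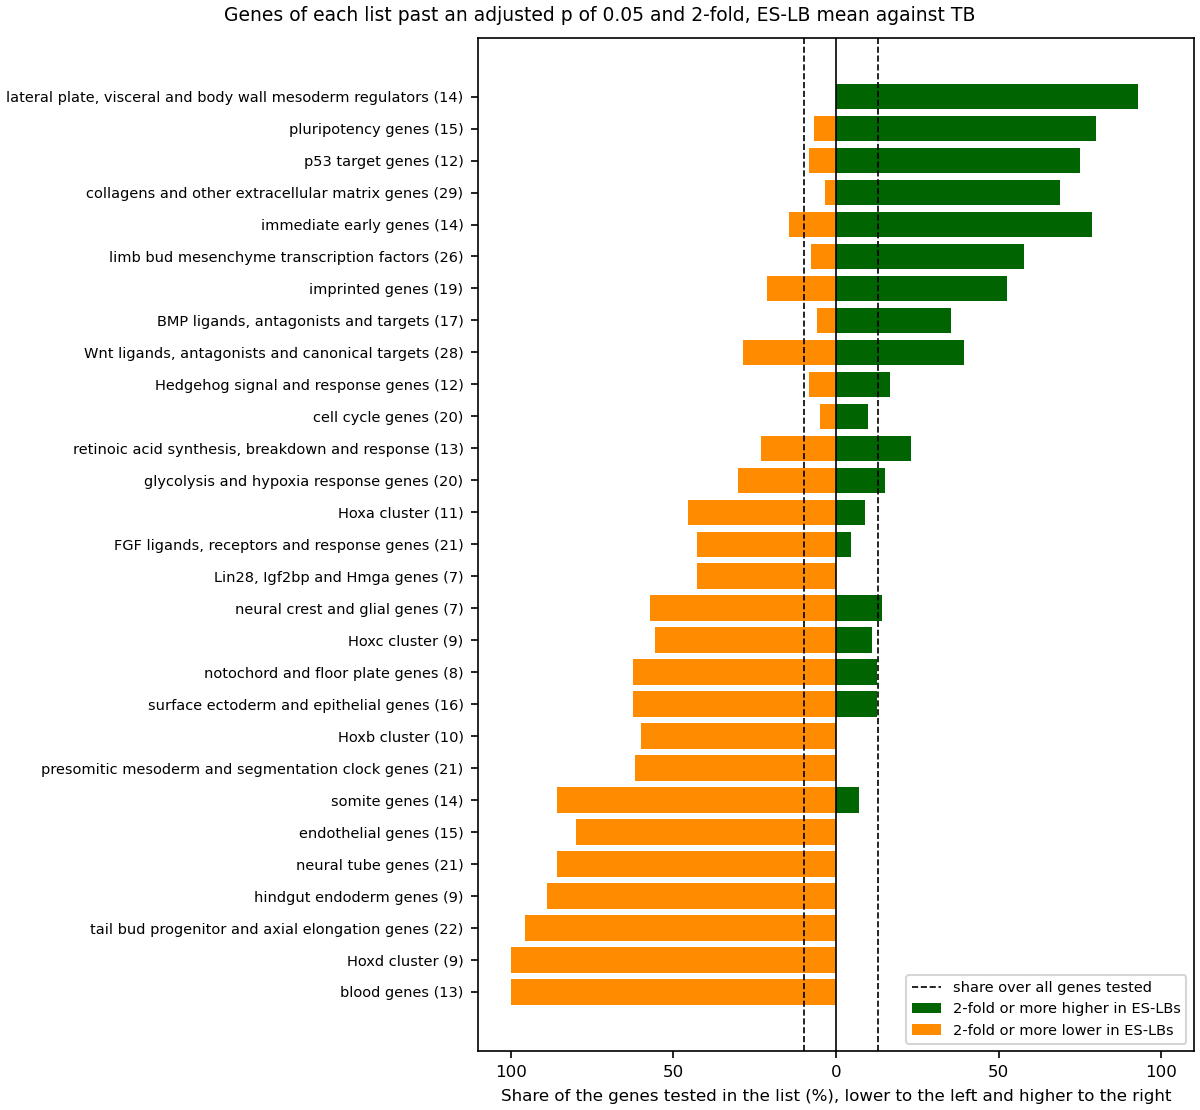
Share of each gene list, in % of its genes tested (number in parentheses), that was 2-fold or more higher (green, right) or lower (orange, left) in the ES-LB mean than in TB at an adjusted p below 0.05 (limma). Dashed lines mark the shares over all genes tested, 12.9% higher and 9.82% lower. Lateral plate genes stand at one end with 13 of 14 higher and blood genes at the other with 13 of 13 lower.

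Limb bud transcription factors were mostly higher in the ES-LBs. Of 26 genes tested, 15 were 2-fold or more higher and 2 were lower, with a median log2 fold change of 1.17. Below 1 CPM in all 3 TB libraries were 4 of the 26 genes, Tbx5 and Shox2 among them, which only the ES-LBs could carry past the filter. Hand2 (GRCm38, chromosome 8, 57320983 to 57324517), the basic helix-loop-helix factor of the early limb field and the gene whose reporter selected the cells, had 172, 175 and 149.7 CPM in the ES-FLB libraries, 258, 233 and 254 CPM in ES-HLB and 3.03, 0.859 and 2.54 CPM in TB. Every ES-LB library lay far above every TB library (log2 fold change 6.38, standard error 0.30, adjusted p = 1.08e-06, limma). Since the sort used this gene, the difference is no independent finding. Prrx1, a homeobox factor of limb and other loose mesenchyme, had 478, 493 and 494 CPM in the ES-FLB libraries, 676, 691 and 665 CPM in ES-HLB and 123, 112 and 138 CPM in TB. The groups did not overlap for Prrx1, although TB was well above the floor (log2 fold change 2.21, standard error 0.046, adjusted p = 3.21e-22, limma). The repressors of the T-box family Tbx2 and Tbx3, the helix-loop-helix gene Twist1 and the homeobox genes Alx4 and Meis1 rose as well, with log2 fold changes of 4.29, 2.01, 1.94, 2.13 and 1.21 (adjusted p = 2.73e-15, 7.67e-06, 2.52e-16, 3.52e-12 and 4.19e-23, limma). Shox2, a regulator of proximal limb growth, had 10.1, 10.8 and 13.2 CPM in the ES-FLB libraries, 62.3, 62.2 and 55.1 CPM in ES-HLB and 0, 0 and 0.121 CPM in TB. In TB it was below the floor in all 3 libraries.

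The genes that separate forelimb from hindlimb buds in the embryo were measured in both types. Tbx5 had 76.3, 71.4 and 77.3 CPM in the ES-FLB libraries, 4.30, 2.39 and 3.28 CPM in ES-HLB and 0.395, 0.123 and 0.242 CPM in TB. The 3 groups formed 3 separate levels, with ES-FLB highest. Tbx4 had 4.38, 3.87 and 1.29 CPM in the ES-FLB libraries, 64.9, 61.4 and 51.6 CPM in ES-HLB and 3.82, 0.614 and 1.69 CPM in TB. ES-FLB overlapped TB for Tbx4 (adjusted p = 0.371, limma) and only ES-HLB stood above it (log2 fold change 4.76 with adjusted p = 0.000287 by limma), and the difference between the types was itself past the threshold (log2 fold change 4.14 for ES-HLB against ES-FLB, adjusted p = 0.00278, limma). Pitx1, a hindlimb homeobox gene that acts upstream of Tbx4, had 7.84 ± 1.55 CPM in ES-FLB, 73.7 ± 4.67 CPM in ES-HLB and 0.837 ± 0.219 CPM in TB (SD, n = 3 each) and was above TB in both types (adjusted p = 8.17e-17 and 1.84e-26, limma). Of the other limb markers, Lhx9 had 5.06 ± 1.10 CPM in ES-FLB, 5.78 ± 1.35 CPM in ES-HLB and 0.328 ± 0.179 CPM in TB (SD, n = 3 each), while Msx1, a BMP target, differed from TB in ES-HLB (log2 fold change 0.92 with adjusted p = 6.53e-13 by limma) but did not pass in ES-FLB (log2 fold change 0.10 with adjusted p = 0.221 by limma). Msx1 had 44.6 ± 5.12 CPM in ES-FLB, 78.9 ± 5.03 CPM in ES-HLB and 41.3 ± 1.84 CPM in TB (SD, n = 3 each). So TB held Prrx1 and Msx1 RNA well above the floor, Hand2 and Tbx4 RNA at a few times the floor and Tbx5 and Lhx9 RNA at or about it.

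Not all limb genes were higher. Sall1, a zinc finger gene, was lower (log2 fold change −1.99, standard error 0.046, adjusted p = 1.36e-28, limma), with 60.3 ± 1.80 CPM in ES-FLB, 83.2 ± 2.32 CPM in ES-HLB and 282 ± 13.1 CPM in TB (SD, n = 3 each), and so was Zbtb16 (log2 fold change −1.09, adjusted p = 3.43e-12, limma). Sox9, the cartilage regulator, and Gli3, a transducer of hedgehog signals, did not pass (adjusted p = 0.568 and 0.0692, limma), with log2 fold changes of −0.067 and 0.082. Lmx1b, which sets dorsal identity in limb mesenchyme, had 1.17 ± 0.792 CPM in ES-FLB, 0.762 ± 0.397 CPM in ES-HLB and 1.68 ± 0.594 CPM in TB (SD, n = 3 each), and Isl1, of the early hindlimb field, 24.8 ± 3.42 CPM in ES-FLB, 32.3 ± 0.990 CPM in ES-HLB and 19.5 ± 6.79 CPM in TB (SD, n = 3 each). The call of Isl1 (adjusted p = 0.0442, limma) was lost without TB replicate 3, ES-FLB replicate 1 or 2 or any 1 of the ES-HLB libraries (adjusted p = 0.0717 to 0.0837, limma), and that of Lmx1b (adjusted p = 0.0329, limma) without TB replicate 1, ES-FLB replicate 1 or 2 or ES-HLB replicate 2 or 3 (adjusted p = 0.0574 to 0.241, limma).

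Regulators of the wider lateral plate, of the gut wall and of the body wall were almost all higher. Of 14 tested genes 13 were 2-fold or more higher and none lower, with a median log2 fold change of 3.30. Below 1 CPM in all 3 TB libraries were 4 of the 15 genes listed, Gata4 and Hand1 among them. Only the ES-LBs could carry such genes past the filter, so it fixed their direction. Gata4, a zinc finger factor of heart and gut mesoderm, had 39.7, 32.2 and 30.7 CPM in the ES-FLB libraries, 10.1, 12.97 and 11.98 CPM in ES-HLB and 0, 0.368 and 0 CPM in TB. Gata6, its relative, had 90.0, 80.8 and 73.4 CPM in the ES-FLB libraries, 74.9, 60.5 and 73.8 CPM in ES-HLB and 1.84, 1.35 and 0.725 CPM in TB. For both genes the highest TB library was below the lowest ES-LB library by a wide margin (log2 fold change 5.09, standard error 0.17, adjusted p = 8.38e-24, limma for Gata4, and log2 fold change 5.44, standard error 0.18, adjusted p = 1.66e-09, limma for Gata6). Hand1, the posterior and ventral relative of Hand2, was listed at 0 in all 3 TB libraries and reached 21.0 ± 1.09 CPM in ES-HLB, with 4.30 ± 1.09 CPM in ES-FLB (SD, n = 3 each), at least 32.1-fold higher than 3 reads in TB for the mean of both types. Osr1 and Osr2, odd-skipped genes of intermediate and lateral mesoderm, rose by 3.17 and 3.42 on the log2 scale (adjusted p = 4.36e-06 and 6.73e-25, limma). The forkhead gene Foxf1, listed as Foxf1a, which marks splanchnic mesoderm, had 24.5 ± 2.74 CPM in ES-FLB, 3.82 ± 0.595 CPM in ES-HLB and 1.48 ± 0.913 CPM in TB (SD, n = 3 each), and the types differed (log2 fold change −2.54 for ES-HLB against ES-FLB, adjusted p = 1.2e-08, limma). Nkx2-5, a heart factor, had group means of at most 0.709 CPM and was not tested. As the libraries are of bulk RNA, fewer cells of a type and less RNA per cell cannot be told apart for any of these genes.

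**Figure D2:**
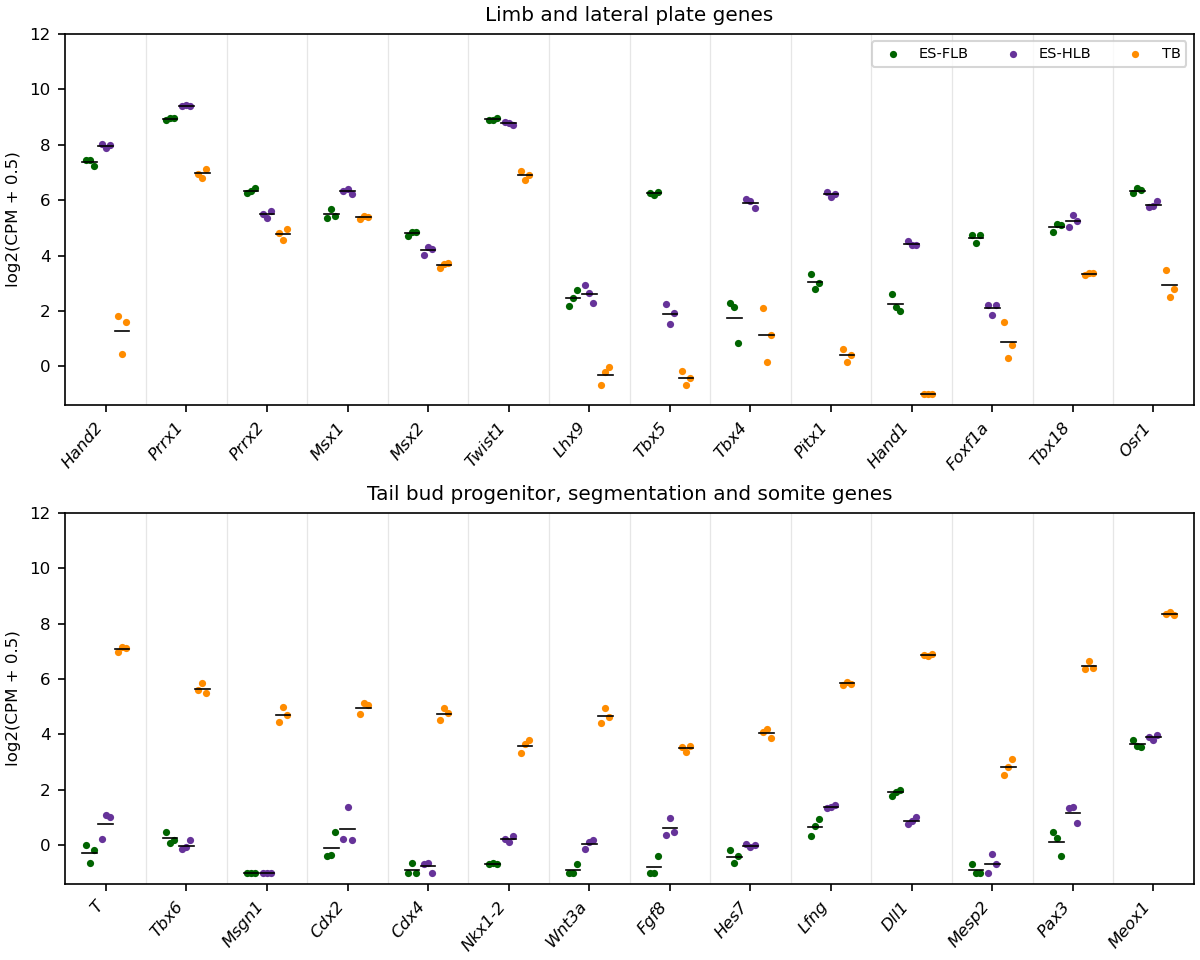
Level of limb and lateral plate genes (upper panel) and of tail bud progenitor, segmentation and somite genes (lower panel) in the 9 libraries, as log2(CPM + 0.5) on the vertical axis. Each point is 1 library (green ES-FLB, purple ES-HLB, orange TB), each bar the mean of 3 on this scale, and −1 is a gene listed at 0. In the lower panel all TB points lie above all ES-LB points, and Msgn1 is at 0 in all 6 ES-LB libraries.

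Genes of the axial progenitors were lower in the ES-LBs in every case, since all 22 tested had an adjusted p below 0.05, 21 of them by 2-fold or more, with a median log2 fold change of −3.08 (−3.07 with the 1 gene listed at 0 on one side set to its bound). Of the 22 genes, 9 were below 1 CPM in all 6 ES-LB libraries, so the filter fixed their direction. T, the T-box gene that defines these progenitors, had 0.516, 0.138 and 0.387 CPM in the ES-FLB libraries, 0.671, 1.64 and 1.51 CPM in ES-HLB and 126, 143 and 138 CPM in TB. No ES-LB library came near TB (log2 fold change −6.83, standard error 0.18, adjusted p = 1.7e-25, limma), and ES-HLB was above ES-FLB (log2 fold change 1.04, adjusted p = 0.000246, limma). Cdx2, a caudal homeobox gene that activates posterior Hox genes, had 0.258, 0.277 and 0.904 CPM in the ES-FLB libraries, 0.671, 2.09 and 0.631 CPM in ES-HLB and 25.9, 34.3 and 32.9 CPM in TB. Wnt3a, the Wnt ligand that maintains the progenitors, had 0, 0 and 0.129 CPM in the ES-FLB libraries, 0.403, 0.597 and 0.631 CPM in ES-HLB and 20.7, 30.2 and 24.2 CPM in TB. ES-LB values of Wnt3a were around or under the floor (log2 fold change −5.07, standard error 0.20, adjusted p = 1.25e-21, limma). Fgf8 and Fgf17, ligands of the tail bud, showed log2 fold changes of −3.61 and −4.51 (adjusted p = 1.15e-16 and 1.48e-19, limma), and the homeobox genes Cdx4, Evx1 and Nkx1-2 of −5.57, −4.66 and −3.81 (adjusted p = 2.95e-22, 1.31e-20 and 6.75e-18, limma). Mnx1 was listed at 0 in all 6 ES-LB libraries, at least 8.07-fold lower than in TB. Sox2, which axial progenitors share with neural tissue and ES cells, had 9.43 ± 2.12 CPM in ES-FLB, 24.5 ± 3.10 CPM in ES-HLB and 65.1 ± 1.61 CPM in TB (SD, n = 3 each). The exception to the 2-fold limit was Fgf4, at 0.621 ± 0.222 CPM in ES-FLB, 3.38 ± 0.389 CPM in ES-HLB and 3.41 ± 0.674 CPM in TB (SD, n = 3 each), where ES-HLB did not differ detectably from TB (log2 fold change −0.0014, standard error 0.24, limma).

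Sp5, a zinc finger target of Wnt signals, had 3.94 ± 1.19 CPM in ES-FLB, 9.79 ± 0.381 CPM in ES-HLB and 23.1 ± 2.02 CPM in TB (SD, n = 3 each). Summed over the list, progenitor genes had 83.9 to 91.6 CPM in the ES-FLB libraries, 145 to 161 CPM in ES-HLB and 776 to 869.7 CPM in TB, so the ES-HLB libraries lay above the ES-FLB libraries without overlap. Of the 22 genes, 8 were 2-fold or more higher in ES-HLB than in ES-FLB and none lower, where 2.86% and 1.92% of all genes were. The list shares Sox2 and Fgf4 with the list of pluripotency genes, of which 13 of 15 were 2-fold or more higher in ES-HLB too, as were 9 of 13 blood genes. Summed, the pluripotency genes had 144 to 147 CPM in the ES-FLB libraries, 169 to 215 CPM in ES-HLB and 81.2 to 83.9 CPM in TB, and their part in the difference of the progenitor genes between the types was not tested. Leaving out 1 TB library at a time reduced the 21 calls to 12, since a gene seen in TB alone then no longer reached 1 CPM in 3 libraries, and with 2 libraries required all 21 were called again.

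The segmentation program was reduced in part. Of 21 genes tested, 13 were 2-fold or more lower and none were higher by that much, with a median of −2.02. Below 1 CPM in all 6 ES-LB libraries were 7 of the 22 genes listed, which only TB could carry past the filter. Genes specific to presomitic mesoderm and to its clock were among those that fell. Tbx6, which directs progenitors to a mesodermal fate, had 0.902, 0.554 and 0.645 CPM in the ES-FLB libraries, 0.403, 0.447 and 0.631 CPM in ES-HLB and 47.9, 56.8 and 45.1 CPM in TB. Msgn1, the helix-loop-helix factor of presomitic mesoderm, was listed at 0 in all 6 ES-LB libraries and had 21.6, 30.9 and 25.5 CPM in TB, at least 58.1-fold lower. The clock genes Hes7 and Lfng showed log2 fold changes of −4.26 and −4.82, and the Notch ligands Dll1 and Dll3 of −5.47 and −5.64 (adjusted p = 1.44e-19, 9.41e-25, 4.53e-29 and 7.88e-25, limma). Dll1 had 2.96, 3.32 and 3.48 CPM in the ES-FLB libraries, 1.21, 1.34 and 1.51 CPM in ES-HLB and 115, 114 and 119 CPM in TB. Ripply2, a gene of the forming somite border, was at 0 in all 6 ES-LB libraries, at least 8.85-fold lower. Another 7 of the 21 genes were higher at an adjusted p below 0.05, each within 2-fold, where 39.7% of all genes were higher by that p alone. Several of the 7 read out Wnt or FGF signals in many tissues. Axin2 and Nkd1, feedback inhibitors of Wnt, showed log2 fold changes of 0.68 and 0.67, and Dusp6, a feedback phosphatase of FGF signals, of 0.30 (adjusted p = 1.55e-13, 9.05e-15 and 3.65e-07, limma). Dusp4, its relative, fell by 1.56 (adjusted p = 6.36e-21, limma). Without any 1 of the TB libraries 7 genes were called lower, and 13 again with 1 CPM required in 2 libraries.

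Promoters of 3 of these genes are shown because progenitor and presomitic genes are known targets of Wnt signals through TCF/LEF factors and of T-box factors. The windows hold 250 bases before and 50 from the RefSeq start (GRCm38.p6), 5′ to 3′ on the gene's strand, and lie at chr17:8434173-8434472 (+) for T, chr12:11208899-11209198 (−) for Msgn1 and chr2:70474673-70474972 (+) for Sp5. Capitals mark a match to the TCF/LEF motif CTTTGAT or to the T-box element AGGTGT on either strand (ATCAAAG or ACACCT when reversed), which do not overlap each other.
T: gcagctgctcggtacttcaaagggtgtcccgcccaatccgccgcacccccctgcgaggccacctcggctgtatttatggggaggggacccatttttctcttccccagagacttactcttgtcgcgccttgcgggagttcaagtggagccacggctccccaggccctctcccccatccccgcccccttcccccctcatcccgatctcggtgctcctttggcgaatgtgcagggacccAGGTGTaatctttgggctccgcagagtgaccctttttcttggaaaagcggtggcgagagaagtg
Msgn1: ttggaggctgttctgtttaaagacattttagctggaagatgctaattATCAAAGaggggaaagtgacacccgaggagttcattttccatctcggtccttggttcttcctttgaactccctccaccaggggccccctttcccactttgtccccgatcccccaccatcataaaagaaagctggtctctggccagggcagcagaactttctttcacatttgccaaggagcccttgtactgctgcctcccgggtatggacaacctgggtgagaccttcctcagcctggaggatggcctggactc
Sp5: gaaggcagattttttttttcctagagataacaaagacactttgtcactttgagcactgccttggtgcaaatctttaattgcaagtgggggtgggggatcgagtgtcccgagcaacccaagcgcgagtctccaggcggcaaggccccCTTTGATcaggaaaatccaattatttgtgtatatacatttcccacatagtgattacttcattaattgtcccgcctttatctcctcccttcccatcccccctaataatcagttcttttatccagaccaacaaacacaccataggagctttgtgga
In T the capitals are the T-box element, whose first base lies 14 bases before the start. In Msgn1 and Sp5 they are the TCF/LEF motif, with the first base 203 and 104 bases before the start. Of the 44 genes of the progenitor and segmentation lists, 35 had a promoter in the table, and 3 of these (8.57%) held the TCF/LEF motif and 9 (25.7%) the T-box element, against 3.72% and 13.9% of the promoters of all 27025 genes. These matches describe letters in a window and were not tested as sites.

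Somite genes followed. Of 14 tested, 12 were 2-fold or more lower, with a median of −4.23. Below 1 CPM in all 6 ES-LB libraries were 6 of the 16 genes listed, which only TB could carry past the filter. Meox1, a homeobox gene of all somite compartments, had 13.5, 11.6 and 11.2 CPM in the ES-FLB libraries, 14.6, 13.3 and 15.1 CPM in ES-HLB and 323, 339 and 318 CPM in TB. Pax3, of the dermomyotome and of migrating limb muscle precursors, had 0.902, 0.692 and 0.258 CPM in the ES-FLB libraries, 2.01, 2.09 and 1.26 CPM in ES-HLB and 81.7, 98.8 and 84.8 CPM in TB. Pax1, of the sclerotome, had 6.19, 6.37 and 10.3 CPM in the ES-FLB libraries, 0.940, 0.447 and 1.01 CPM in ES-HLB and 106, 91.7 and 107 CPM in TB. All ES-LB values of these genes lay below all TB values (log2 fold changes −4.58, −5.83 and −4.999, adjusted p = 9.77e-34, 2.95e-24 and 6.42e-19, limma). Uncx, Tcf15 and the muscle regulator Myf5 were lower as well (−6.24, −5.21 and −4.41 on the log2 scale, with adjusted p = 2.78e-24, 2.92e-22 and 4.21e-18, limma). In the other direction, Scx, the tendon factor, had 15.9 ± 2.33 CPM in ES-FLB, 13.5 ± 0.312 CPM in ES-HLB and 0.759 ± 0.409 CPM in TB (SD, n = 3 each). Meox2, which limb mesenchyme also expresses, differed from TB in opposite directions in the 2 types, with log2 fold changes of −1.21 in ES-FLB and 0.41 in ES-HLB (adjusted p = 3.26e-14 and 0.000131, limma).

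Markers of the other tissues that a dissected tail bud holds were likewise mostly lower in the sorted cells. For the neural tube, 18 of 21 genes tested were 2-fold or more lower and none higher (median −2.74). Of the 23 genes listed, 10 were below 1 CPM in all 6 ES-LB libraries, Pax6 and Olig2 among them. Such genes passed the filter through TB alone and could only be called lower. Pax6 and Olig2, which pattern the neural tube, fell by 5.49 and 4.30 on the log2 scale (adjusted p = 3.89e-22 and 1.43e-18, limma), and the summed list had 112 to 136 CPM in the ES-FLB libraries, 104 to 129.8 CPM in ES-HLB and 644 to 742 CPM in TB. Without any 1 of the TB libraries 9 were lower (18 to 19 with 1 CPM required in 2 libraries), and 1 was higher without TB replicate 1. Vessel genes were lower in 12 of 15 cases (median −2.97), among them Cdh5 (VE-cadherin, −3.75, adjusted p = 4.74e-12, limma) and Pecam1 (−3.41, adjusted p = 3.79e-24, limma). Their sum was 61.9 to 64.4 CPM in the ES-FLB libraries, 89.4 to 98.9 CPM in ES-HLB and 535 to 589 CPM in TB. Hindgut genes were lower in 8 of 9. Notochord and floor plate genes were lower in 5 of 8, with Noto listed at 0 in all 6 ES-LB libraries, and 1 was higher by 2-fold or more. The higher one was Chrd (log2 fold change 1.59, adjusted p = 9.29e-11, limma). Glial and neural crest genes were lower in 4 of 7 and higher in 1.

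Surface ectoderm was less one-sided, with 10 of 16 genes lower and 2 higher. Wnt7a and Wnt6, ligands of limb and trunk ectoderm, fell by 4.34 and 3.32 on the log2 scale (adjusted p = 4.45e-18 and 5.32e-13, limma), and Trp63, the p63 gene of stratified epithelium, had 3.85 ± 1.92 CPM in ES-FLB, 4.35 ± 1.57 CPM in ES-HLB and 24.2 ± 2.69 CPM in TB (SD, n = 3 each). The genes higher by 2-fold were Krt14, a keratin of basal epidermis, at 7.87 ± 1.80 CPM in ES-FLB, 19.2 ± 1.41 CPM in ES-HLB and 2.72 ± 0.390 CPM in TB (SD, n = 3 each), and the transcription factor gene Tfap2c, at 17.4 ± 2.78 CPM in ES-FLB, 17.1 ± 2.82 CPM in ES-HLB and 7.12 ± 0.553 CPM in TB (SD, n = 3 each). The summed list had 170.3 to 242 CPM in the ES-FLB libraries, 323 to 345 CPM in ES-HLB and 439 to 467 CPM in TB. The organoids carry an epidermal layer around the GFP-positive mesenchyme, and the part of such cells in the sorted samples was not tested.

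Blood genes had the largest drop in summed level among these tissues. All 13 tested were 2-fold or more lower (median −4.01), and the sum was 10.2 to 12.3 CPM in the ES-FLB libraries, 102 to 187 CPM in ES-HLB and 6210.4 to 7193 CPM in TB. Hbb-y, an embryonic beta-type globin, had 3.22, 3.46 and 2.84 CPM in the ES-FLB libraries, 41.1, 27.4 and 23.5 CPM in ES-HLB and 2899, 3026 and 3319 CPM in TB. ES-FLB was lowest in every library and ES-HLB lay between it and TB (log2 fold change −9.71 for ES-FLB and −6.67 for ES-HLB, adjusted p = 9.08e-09 and 9.06e-08, limma). ES-HLB exceeded ES-FLB by 2-fold or more in 9 of the 13 genes, for example in Hbb-y (log2 fold change 3.05, adjusted p = 5.61e-05, limma) and in Alas2, of haem synthesis in red cells (2.47, adjusted p = 4.4e-12, limma). Ptprc, the CD45 gene of white cells, was under the floor in all 6 ES-LB libraries. Below 1 CPM in all 6 ES-LB libraries were 4 of the 15 genes listed, which only TB could carry past the filter. Some globin genes of the list, such as Hba-a1 and Hba-a2, are near-identical copies, so reads could be split between those copies.

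Hox genes are read from the 3′ to the 5′ end of each cluster along the body axis, and TB, as the hind end of the axis, is a natural reference. By 2-fold or more in the ES-LB mean, 1 of 11 Hoxa, none of 10 Hoxb and 1 of 9 Hoxc genes were higher, and 5, 6 and 5 lower (medians −0.91, −1.96 and −1.38). Several genes of groups 2 to 6 were above TB in ES-FLB and below it in ES-HLB. Hoxa5 (GRCm38, chromosome 6, 52201754 to 52204587) had 64.2, 62.5 and 63.0 CPM in the ES-FLB libraries, 6.04, 7.01 and 7.06 CPM in ES-HLB and 27.2, 21.98 and 28.4 CPM in TB. TB lay between the types, without overlap (log2 fold change 1.28 for ES-FLB and −1.87 for ES-HLB, adjusted p = 2.99e-13 and 1.54e-17, limma). Hoxb5 had 37.6, 34.0 and 33.3 CPM in the ES-FLB libraries, 5.37, 4.92 and 4.41 CPM in ES-HLB and 11.8, 7.74 and 6.52 CPM in TB. Hoxc5 had 73.6, 59.9 and 71.2 CPM in the ES-FLB libraries, 8.06, 9.40 and 8.20 CPM in ES-HLB and 11.3, 8.96 and 9.66 CPM in TB. ES-FLB was the highest group for both, and ES-HLB differed from TB for Hoxb5 (adjusted p = 0.000104, limma) and did not pass for Hoxc5 (log2 fold change −0.21, adjusted p = 0.0972, limma). Hoxa3, Hoxa4, Hoxb2, Hoxb3, Hoxc4 and Hoxc6 had ES-FLB above and ES-HLB below TB too, each past the threshold, with log2 fold changes of 0.61 to 1.28 in ES-FLB and −1.30 to −0.39 in ES-HLB.

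From paralogue group 9 on, the order of the types turned in the Hoxa cluster. Hoxa10, of the proximal limb and the lower trunk, had 26.2, 21.9 and 24.7 CPM in the ES-FLB libraries, 102, 98.9 and 102 CPM in ES-HLB and 87.2, 91.2 and 103 CPM in TB. ES-HLB overlapped TB (log2 fold change 0.11, standard error 0.072, adjusted p = 0.173, limma), while ES-FLB was lower (log2 fold change −1.93 with adjusted p = 1.55e-22 by limma). Hoxa9 and Hoxa11 showed the same arrangement, with ES-HLB at 0.029 and 0.073 against TB (adjusted p = 0.824 and 0.494, limma) and ES-FLB at −1.38 and −2.40 (adjusted p = 4.49e-12 and 8.74e-22, limma). Hoxa13, a gene of the distal limb and the tail end, was below TB in both, at 0.799 ± 0.267 CPM in ES-FLB, 3.31 ± 0.308 CPM in ES-HLB and 13.5 ± 2.23 CPM in TB (SD, n = 3 each).

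In the other clusters the 5′ genes were below TB in both types. The types also differed in both directions in the Hoxc cluster. There 4 of 9 genes were 2-fold or more higher in ES-HLB than in ES-FLB and 4 lower, against 2.86% and 1.92% of all genes. Hoxb9 (GRCm38, chromosome 11, 96271330 to 96276595) had 5.67, 4.71 and 5.94 CPM in the ES-FLB libraries, 6.18, 7.01 and 6.68 CPM in ES-HLB and 101, 104 and 108 CPM in TB. All 6 ES-LB libraries were far under TB (log2 fold change −4.01, standard error 0.099, adjusted p = 6.78e-28, limma), and ES-HLB and ES-FLB did not differ detectably (log2 fold change 0.27, standard error 0.11, adjusted p = 0.0901, limma). Hoxb13, the last gene of its cluster, had 1.42, 0.830 and 0.258 CPM in the ES-FLB libraries, 0.940, 0.447 and 0.757 CPM in ES-HLB and 57.1, 72.1 and 51.7 CPM in TB. Hoxc13 had 0, 0 and 0 CPM in the ES-FLB libraries, 0.671, 1.04 and 1.14 CPM in ES-HLB and 84.7, 93.6 and 83.0 CPM in TB. Hoxc13 was listed at 0 in every ES-FLB library. The log2 fold changes of the ES-LB mean were −5.62 for Hoxb13 and −6.69 for Hoxc13 (adjusted p = 1.75e-16 and 3.39e-27, limma). All 9 Hoxd genes were 2-fold or more lower in both types (median −4.19), from Hoxd1 (−4.77, adjusted p = 3.14e-20, limma) to Hoxd13 (−4.19, adjusted p = 7.05e-27, limma). Hoxd13 had 1.55, 2.21 and 1.94 CPM in the ES-FLB libraries, 11.3, 15.4 and 11.98 CPM in ES-HLB and 97.1, 104 and 106 CPM in TB. Among the Hoxd genes of groups 10 to 13, ES-HLB exceeded ES-FLB by 2.09 to 2.48 on the log2 scale (largest adjusted p = 7.64e-12, limma). Hoxb1, the 3′ end of its cluster, was also far lower, at 0.175 ± 0.0718 CPM in ES-FLB, 0.268 ± 0.128 CPM in ES-HLB and 38.9 ± 2.97 CPM in TB (SD, n = 3 each). In the GENCODE annotation, exons of Hoxd3 and Hoxd4 share 388 bases and those of Hoxc5 and Hoxc10 share 166 bases on the same strand. A few reads of each pair could thus be assigned to the other.

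**Figure D3:**
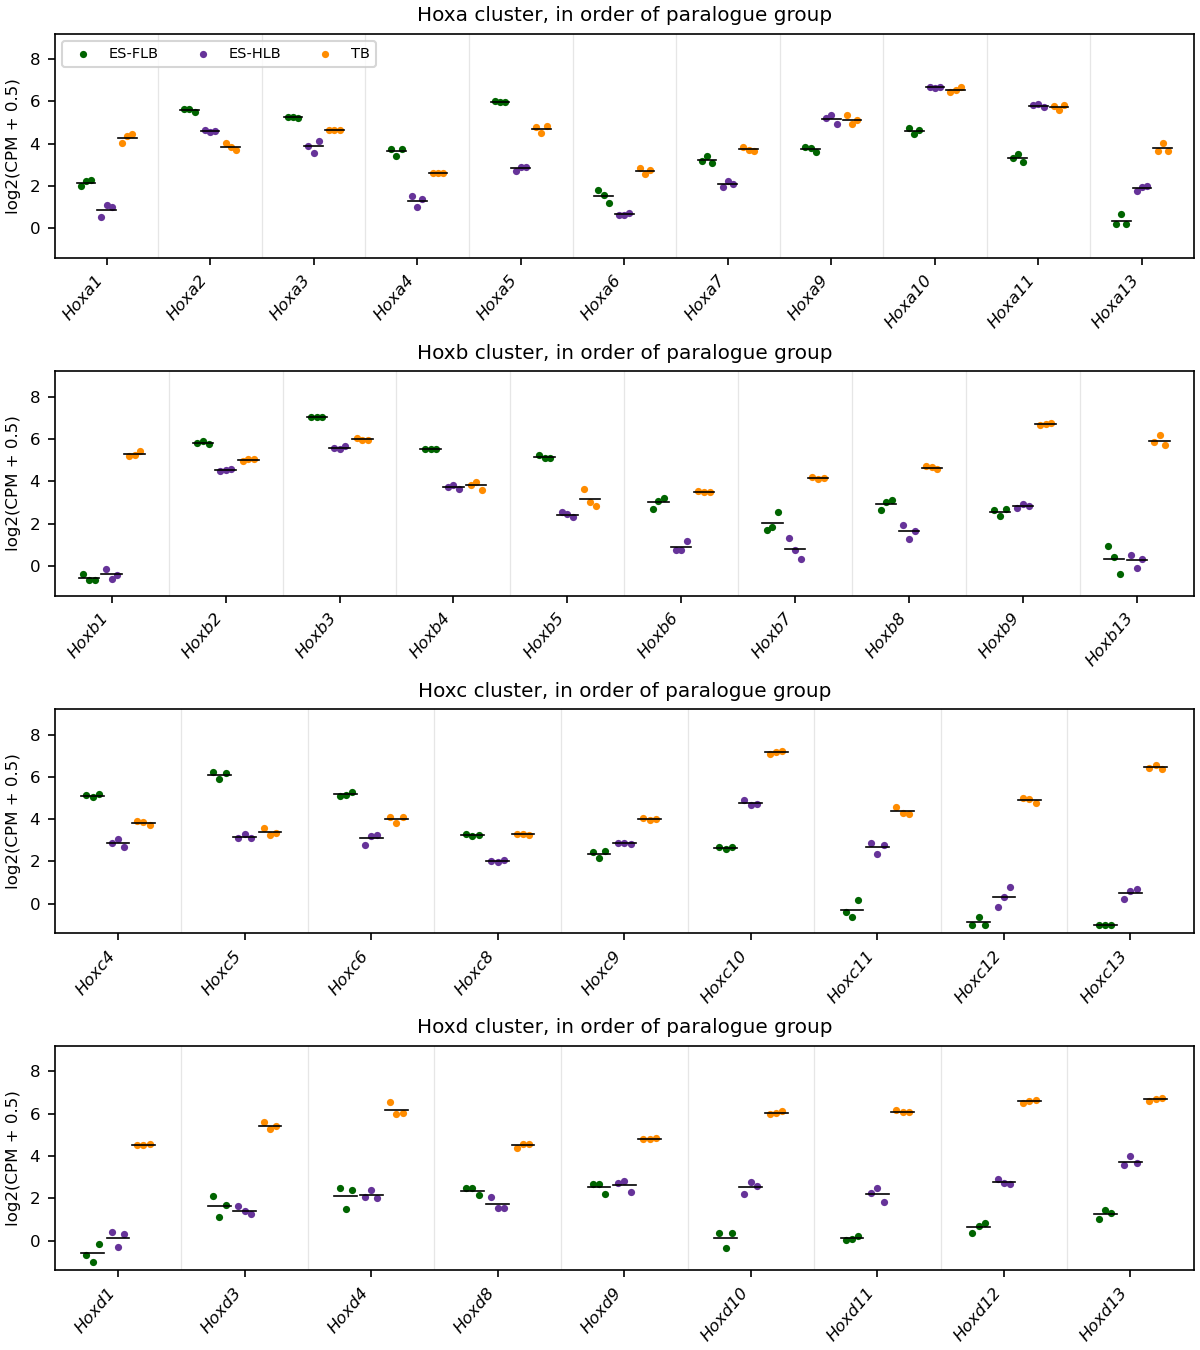
Level of the Hox genes in the 9 libraries, as log2(CPM + 0.5), with 1 panel per cluster and genes in order of paralogue group. Each point is 1 library (green ES-FLB, purple ES-HLB, orange TB) and each bar the mean of 3 on this scale. Green lies above orange and purple below it for Hoxa5, purple is level with orange for Hoxa10, and in the lowest panel every ES-LB point lies under every TB point.

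Ligands, receptors and targets of the signals that act in both tissues were compared next. Of 28 Wnt genes tested, 11 were 2-fold or more higher and 8 lower (median 0.40). Of the 8 lower genes 6 were ligands, such as Wnt3 (−2.90) and Wnt3a (−5.07), with adjusted p = 3.52e-15 and 1.25e-21 (limma). Of the 11 higher genes 9 were secreted modulators. Rspo2, a secreted enhancer of Wnt signals with a role in limb outgrowth, had 44.1, 49.7 and 44.1 CPM in the ES-FLB libraries, 17.7, 14.6 and 15.9 CPM in ES-HLB and 0.789, 0.859 and 0.846 CPM in TB. Dkk2, a modulator that binds Wnt co-receptors, had 60.4, 63.9 and 60.3 CPM in the ES-FLB libraries, 74.8, 66.4 and 77.2 CPM in ES-HLB and 5.79, 2.95 and 3.38 CPM in TB. Neither gene had overlapping groups (log2 fold changes 4.38 and 3.94, adjusted p = 1.39e-26 and 1.45e-08, limma). Below 1 CPM in all 3 TB libraries were 2 of the 28 Wnt genes, Rspo2 among them, which only the ES-LBs could carry past the filter. Rspo1, Sfrp1, Wif1 and Notum, the last a secreted Wnt inhibitor induced by the pathway, rose by 3.53, 1.91, 2.28 and 1.36 (adjusted p = 6.5e-13, 2.35e-29, 2.9e-19 and 3.96e-15, limma). The nuclear partners Lef1 and Tcf7 fell by 0.81 and 1.496 (adjusted p = 3.62e-15 and 2.46e-17, limma). The organoids had been given Wnt3 before the sort, and the part of this in the values of these genes was not tested.

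Among 21 FGF genes, 9 were 2-fold or more lower and 1 higher (median −0.77). The one that rose was Fgf10, the mesenchymal ligand that starts limb outgrowth. Fgf10 had 29.6, 33.2 and 26.7 CPM in the ES-FLB libraries, 16.9, 18.5 and 19.7 CPM in ES-HLB and 1.84, 1.60 and 1.69 CPM in TB. All ES-LB libraries were above all TB libraries (log2 fold change 3.43, standard error 0.12, adjusted p = 1.12e-23, limma). The lower ones held the ligands Fgf3, Fgf8, Fgf17 and Fgf18 (log2 fold changes −3.32, −3.61, −4.51 and −2.93, with adjusted p = 1.87e-14, 1.15e-16, 1.48e-19 and 9.16e-16, limma) and the target Etv4 (−1.73, adjusted p = 3.61e-19, limma). Feedback genes of FGF signals separated the types. Spry2, an inhibitor of the receptor pathway, was slightly below TB in ES-FLB (−0.25, adjusted p = 0.00581, limma) and above it in ES-HLB (0.93, adjusted p = 1.65e-12, limma). Spry1, Spry4, Dusp4, Dusp6, Etv4 and Etv5 were all higher in ES-HLB than in ES-FLB, by 0.45 to 1.11 on the log2 scale (largest adjusted p = 1.72e-05, limma). Without TB replicate 2, 2 FGF genes were 2-fold or more higher, since Fgfr1, a receptor, was close to that limit (0.99, adjusted p = 1.89e-24, limma).

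BMP genes were 2-fold or more higher in 6 of 17 and lower in 1 (median 0.65). Bmp4, a ligand that limb and ventral mesoderm express, had 209, 206 and 185 CPM in the ES-FLB libraries, 96.3, 94.1 and 99.01 CPM in ES-HLB and 25.0, 25.7 and 26.3 CPM in TB. ES-FLB was highest and TB lowest, without overlap (log2 fold change 2.41, standard error 0.052, adjusted p = 1.6e-29, limma for the mean, and −1.05 for ES-HLB against ES-FLB, adjusted p = 9.77e-16, limma). The target Id2 and the inhibitor Smad7 rose by 1.14 and 1.25 (adjusted p = 1.18e-23 and 3.83e-09, limma), and the antagonist Grem1 was above TB in both types, more so in ES-FLB, at 27.3 ± 2.89 CPM in ES-FLB, 7.10 ± 0.800 CPM in ES-HLB and 5.48 ± 0.989 CPM in TB (SD, n = 3 each). Gdf11, a ligand that times the switch from trunk to tail, was lower (log2 fold change −1.07 with adjusted p = 1.51e-12 by limma), and was within 2-fold of TB without ES-HLB replicate 2. Of 12 hedgehog genes 2 were higher and 1 lower by 2-fold (median 0.29), the latter Shh itself, made by notochord, floor plate and limb margin, at 3.36 ± 2.01 CPM in ES-FLB, 1.39 ± 0.308 CPM in ES-HLB and 27.2 ± 2.96 CPM in TB (SD, n = 3 each). Its targets Gli1, Ptch1 and Hhip were each higher in ES-FLB than in ES-HLB, by a log2 difference of −1.14 to −1.10 for ES-HLB against ES-FLB (largest adjusted p = 9.41e-10, limma). Gli1 was above TB in ES-FLB (1.07, adjusted p = 1.34e-12, limma) and did not pass in ES-HLB (−0.067, adjusted p = 0.41, limma).

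Genes of RA metabolism were split, with 3 of 13 higher and 3 lower (median −0.19). ES-FLB organoids had been given RA and ES-HLB organoids its antagonist. Aldh1a2 (GRCm38, chromosome 9, 71215789 to 71296243), the main RA-making enzyme of trunk mesoderm, had 186, 178 and 174 CPM in the ES-FLB libraries, 30.9, 32.2 and 34.4 CPM in ES-HLB and 96.3, 78.5 and 88.8 CPM in TB. TB lay between them in all libraries (log2 fold change 1.03 for ES-FLB and −1.42 for ES-HLB, adjusted p = 7.5e-16 and 1.34e-19, limma). Cyp26a1, the RA-degrading enzyme of the tail bud, was below TB in both, at 0.710 ± 0.392 CPM in ES-FLB, 6.07 ± 0.945 CPM in ES-HLB and 19.8 ± 1.92 CPM in TB (SD, n = 3 each), and Cyp26b1, that of the limb bud, above it, at 28.1 ± 3.55 CPM in ES-FLB, 33.1 ± 2.68 CPM in ES-HLB and 4.69 ± 1.22 CPM in TB (SD, n = 3 each). Dhrs3, a reductase that limits RA synthesis, was low in ES-FLB (log2 fold change −2.91 with adjusted p = 8.45e-18 by limma) and did not pass in ES-HLB (log2 fold change −0.19 with adjusted p = 0.284 by limma).

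Extracellular matrix genes rose widely. Of 29 tested, 20 were 2-fold or more higher and 1 lower (median 2.32), and their sum was 13804 to 14636 CPM in the ES-FLB libraries, 15169.9 to 16053 CPM in ES-HLB and 4167 to 4529.8 CPM in TB. Col3a1, a fibrillar collagen of loose connective tissue, had 4297, 4062 and 4019 CPM in the ES-FLB libraries, 4374, 4126 and 4383 CPM in ES-HLB and 352, 261 and 292 CPM in TB. Col6a1, a chain of the collagen VI network, had 209, 188 and 199.9 CPM in the ES-FLB libraries, 424, 383 and 421 CPM in ES-HLB and 3.16, 4.17 and 3.38 CPM in TB. No ES-LB library of either gene overlapped TB (for Col6a1 log2 fold change 6.14, standard error 0.064, adjusted p = 4.26e-35, limma, and for Col3a1 log2 fold change 3.81 with adjusted p = 2.03e-08 by limma). The small proteoglycans Dcn and Lum, the matricellular genes Postn and Tnc and the crosslinking enzyme Lox rose by 5.42, 5.82, 4.92, 4.24 and 3.80 (adjusted p = 6.26e-33, 2.2e-07, 2.29e-07, 8.36e-38 and 3.93e-22, limma). Lum had 188, 190.1 and 162 CPM in the ES-FLB libraries, 348, 335 and 379 CPM in ES-HLB and 6.05, 2.82 and 3.62 CPM in TB. The lower gene was Col2a1, a collagen of cartilage and notochord (log2 fold change −1.09 with adjusted p = 4.88e-06 by limma), which was within 2-fold without TB replicate 1, and the basement membrane chains Col4a1 and Col4a2 were lower by less than 2-fold (−0.54 and −0.62, adjusted p = 7.74e-17 and 7.81e-16, limma).

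Imprinted genes, which are expressed from 1 parental allele, had several of the largest differences. Of 19 tested, 10 were 2-fold or more higher and 4 lower (median 1.06). Grb10 (GRCm38, chromosome 11, 11930499 to 12037428), a growth-inhibiting adaptor of insulin-type receptors, had 12.4, 7.33 and 11.4 CPM in the ES-FLB libraries, 4.70, 4.92 and 5.17 CPM in ES-HLB and 1812, 1841 and 1848 CPM in TB. No ES-LB library came near any TB library (log2 fold change −7.92, standard error 0.14, adjusted p = 5.6e-11, limma). Grb10 had 1790.1 ± 49.0 CPM in the early FLBs, 1722 ± 158 CPM in the early HLBs, 1855 ± 14.2 CPM in the E10.5 FLBs, 1672 ± 43.8 CPM in the E10.5 HLBs, 2121 ± 77.1 CPM in BA and 2493 ± 78.4 CPM in Ca (SD, n = 3 each, n = 2 for the E10.5 HLBs). FLB and HLB here are embryonic fore- and hindlimb buds, BA is branchial arch and Ca cardiac tissue. By the labels the early FLBs and HLBs are of E10, and BA and Ca of E10.5. The paper dates the early FLBs slightly before and the early HLBs slightly after that label. Of the E10.5 HLBs 1 library, replicate 2, was left out because it lacks 4004 values that the others have. The lowest group mean outside the ES-LBs and TB was 1672 CPM. The H19 and Igf2 genes are neighbours that are expressed from opposite alleles, and they moved in opposite directions. H19, a non-coding RNA, had 12267, 11888 and 11793 CPM in the ES-FLB libraries, 12819.9, 11563 and 12553 CPM in ES-HLB and 3117, 3062 and 2981 CPM in TB. Igf2, a growth factor, had 139, 119 and 124 CPM in the ES-FLB libraries, 113, 101 and 103 CPM in ES-HLB and 1534, 1386 and 1454 CPM in TB. H19 was higher by 1.99 and Igf2 fell by 3.65 on the log2 scale (adjusted p = 4.17e-20 and 1.97e-26, limma), with no overlap.

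Opposite directions were also found at the Dlk1 and Meg3 locus on chromosome 12. Meg3, a maternally expressed non-coding RNA, had 1359, 1095 and 1027 CPM in the ES-FLB libraries, 1055, 1358 and 1042 CPM in ES-HLB and 123, 76.4 and 86.6 CPM in TB. Dlk1, a paternally expressed ligand, had 23.7, 22.4 and 20.7 CPM in the ES-FLB libraries, 25.2, 18.9 and 23.7 CPM in ES-HLB and 129.6, 104 and 119.9 CPM in TB. The groups did not overlap for either gene (log2 fold change 3.61, standard error 0.19, adjusted p = 1.84e-06, limma for Meg3, and log2 fold change −2.36, standard error 0.083, adjusted p = 9.73e-20, limma for Dlk1). Rian and Mirg, other non-coding RNAs of the locus, rose with Meg3 (2.80 and 2.87, adjusted p = 1.22e-12 and 1.85e-06, limma). Paternally expressed genes did not share 1 direction. Mest fell by 2.52 on the log2 scale (adjusted p = 1.17e-26, limma), while Peg3 and Peg10 rose by 2.07 and 2.35 (adjusted p = 6.49e-09 and 2.27e-38, limma). Exons of Mest overlap those of Copg2 on the other strand over 912 bases. Between ES-HLB and ES-FLB, 1 of the 19 genes differed by 2-fold or more, Phlda2, at 0.694 ± 0.445 CPM in ES-FLB, 1.92 ± 0.518 CPM in ES-HLB and 1.42 ± 0.0770 CPM in TB (SD, n = 3 each). The ES-LB libraries all derive from 1 ES cell line, so the line and the culture cannot be told apart for these genes.

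**Figure D4:**
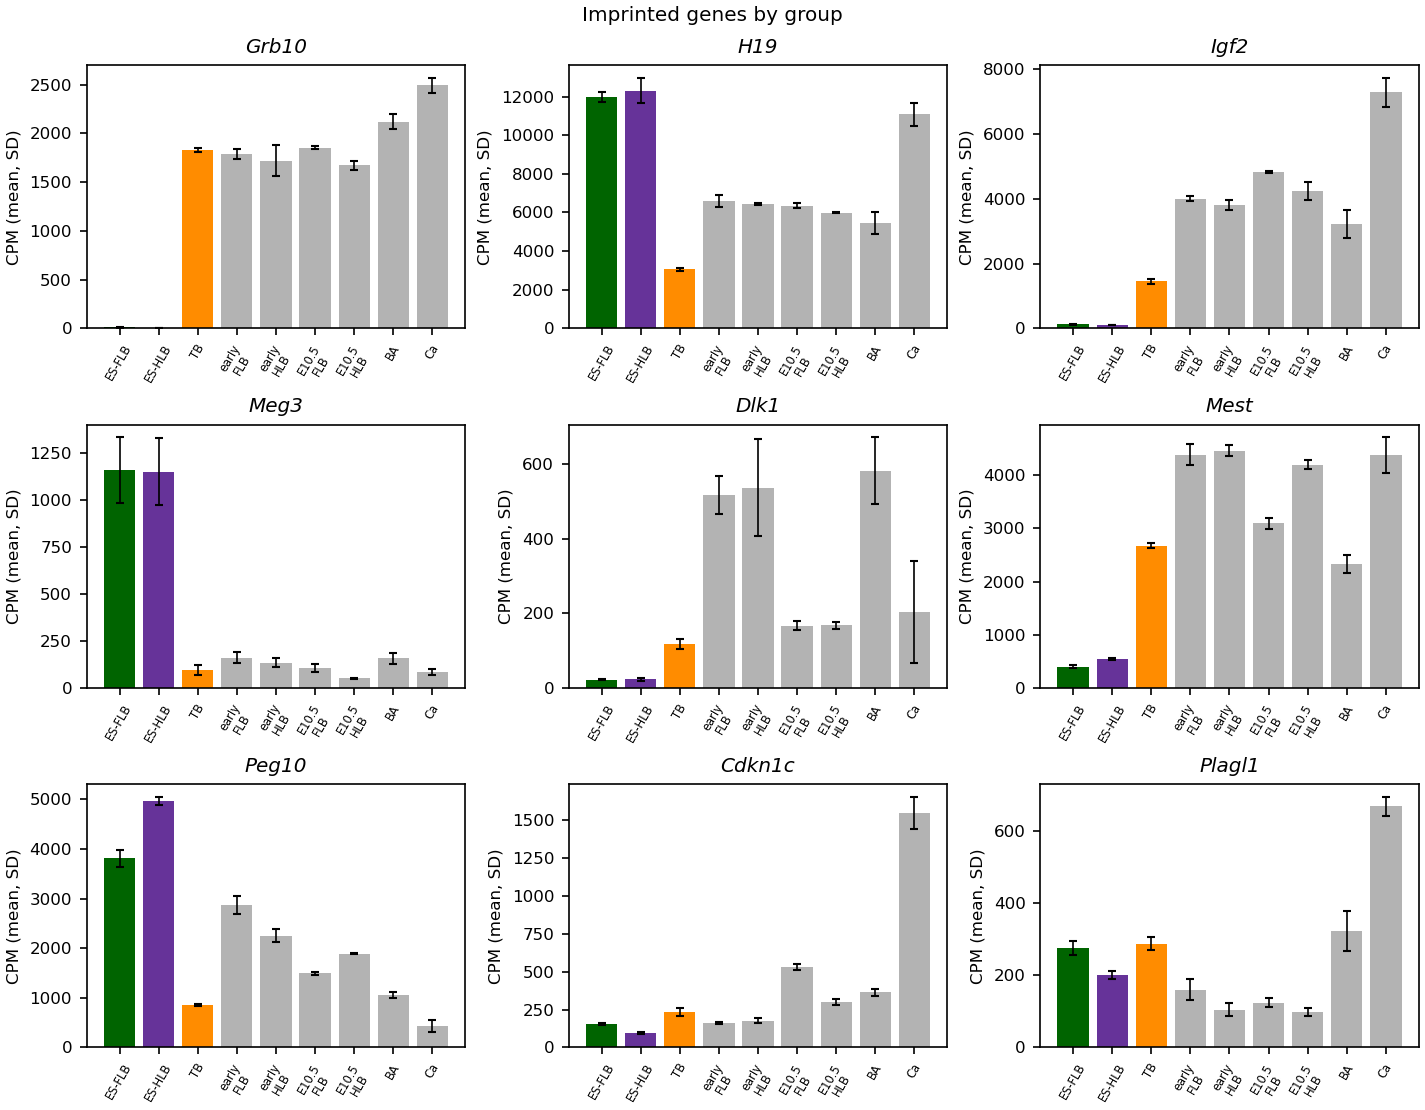
Mean CPM of 9 imprinted genes in the 9 groups of the study, with bars from 0 and error bars of 1 SD (n = 3, n = 2 for the E10.5 HLBs, whose replicate 2 was left out). ES-FLB is green, ES-HLB purple, TB orange and the other embryonic groups grey. Grb10 is at 10.4 and 4.93 CPM in the ES-LBs and at 1672 CPM or more elsewhere.

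Most genes of the pluripotent state were above TB in the ES-LBs. Of 15 tested, 12 were 2-fold or more higher and 1 lower (median 2.17). Below 1 CPM in all 3 TB libraries were 10 of the 16 genes listed, which only the ES-LBs could carry past the filter. Pou5f1, the Oct4 gene, had 5.54, 2.77 and 4.78 CPM in the ES-FLB libraries, 12.9, 20.6 and 20.2 CPM in ES-HLB and 0.132, 0.246 and 0.604 CPM in TB. Zfp42, the Rex1 gene of naive ES cells, had 5.54, 4.43 and 4.78 CPM in the ES-FLB libraries, 18.3, 21.9 and 21.4 CPM in ES-HLB and 0.395, 0.737 and 0.846 CPM in TB. Dppa5a, a gene of early embryos and germ cells, had 5.93, 4.71 and 6.32 CPM in the ES-FLB libraries, 14.0, 24.0 and 19.8 CPM in ES-HLB and 0.132, 0 and 0.121 CPM in TB. For all 3 genes ES-HLB was highest, ES-FLB lay between and TB was at 1 CPM or less in each library. The log2 fold changes of ES-HLB against ES-FLB were 1.94, 1.96 and 1.66 (adjusted p = 5.12e-07, 5.13e-10 and 1.71e-07, limma), and 13 of the 15 genes were 2-fold or more higher in ES-HLB than in ES-FLB (2.86% of all genes). Klf4 went against this order. Klf4, a reprogramming factor that fibroblasts and epithelia also express, had 100.4, 105 and 93.4 CPM in the ES-FLB libraries, 41.6, 37.1 and 39.7 CPM in ES-HLB and 4.60, 2.82 and 4.59 CPM in TB. Lin28a, an RNA-binding gene of early embryos and ES cells, was in contrast below TB in both types, at 3.60 ± 0.798 CPM in ES-FLB, 18.0 ± 1.40 CPM in ES-HLB and 121 ± 18.5 CPM in TB (SD, n = 3 each), as was its relative Lin28b (log2 fold change −1.93 with adjusted p = 1.38e-20 by limma). They belong to a list of 7 Lin28, Igf2bp and Hmga genes, RNA- and chromatin-binding genes of early development, which were all lower at an adjusted p below 0.05, 3 of them by 2-fold or more (median −0.90).

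Immediate early genes, which are transcribed within minutes of a stimulus, included the largest increase among the named genes. Of 14 tested, 11 were 2-fold or more higher and 2 lower (median 2.13). Below 1 CPM in all 3 TB libraries were 4 of the 15 genes listed, Fos among them. Only the ES-LBs could carry such genes past the filter, so it fixed their direction. Egr1 had 748, 491 and 743 CPM in the ES-FLB libraries, 413, 480.2 and 526 CPM in ES-HLB and 3.55, 1.96 and 1.33 CPM in TB. Fos had 157, 106 and 174 CPM in the ES-FLB libraries, 79.5, 112 and 118 CPM in ES-HLB and 0.658, 0.982 and 0.483 CPM in TB. TB and ES-LB values were far apart in every library (log2 fold change 7.71, standard error 0.28, adjusted p = 2.28e-07, limma for Egr1, and log2 fold change 6.67, standard error 0.22, adjusted p = 6.8e-08, limma for Fos). The ES-LB cells were dissociated and sorted before RNA was taken and no such step is named for TB, and the part of this step was not tested. Ctgf and Atf3 were the lower members (−1.995 and −1.42, adjusted p = 7.01e-15 and 2.89e-09, limma).

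Targets of p53 were 2-fold or more higher in 9 of 12 cases (median 1.55), for example Ccng1 (2.37), Trp53inp1 (3.22), Eda2r (3.70) and the cell cycle inhibitor Cdkn1a (1.48), with adjusted p = 4.24e-26, 1.44e-32, 3.57e-28 and 4.26e-19 (limma). Trp53inp1 had 169, 185 and 179 CPM in the ES-FLB libraries, 143, 149.6 and 145 CPM in ES-HLB and 16.4, 15.8 and 18.5 CPM in TB. The one that fell was Pmaip1 (log2 fold change −1.98 with adjusted p = 1.64e-13 by limma). Of 20 proliferation genes tested, 15 were lower at an adjusted p below 0.05, against 39.2% of all genes, but 1 by 2-fold or more (median −0.71), the cyclin Ccnd1 (log2 fold change −1.18 with adjusted p = 2.27e-22 by limma), or 2 without TB replicate 1 or 3 or ES-HLB replicate 1. The inhibitors Cdkn1a and Cdkn1b were the members that rose by 2-fold (1.25 for Cdkn1b, adjusted p = 2.33e-19, limma). Ccnb1, Cdk1 and Pcna fell by 0.78, 0.75 and 0.73 (adjusted p = 2.08e-19, 1.61e-17 and 1.11e-19, limma), and Mki67 rose by 0.28 (adjusted p = 9.44e-09, limma).

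Most glycolytic enzymes were lower. Of 20 genes of glycolysis and hypoxia response, 6 were 2-fold or more lower and 3 higher (median −0.62). Ldha, the lactate-forming enzyme, had 557, 384 and 403 CPM in the ES-FLB libraries, 737, 649 and 642 CPM in ES-HLB and 1622, 1711 and 1637 CPM in TB. Slc2a1, the glucose carrier GLUT1, had 123, 76.8 and 106 CPM in the ES-FLB libraries, 215, 158 and 176 CPM in ES-HLB and 274, 283 and 277 CPM in TB. Replicate 1 was the highest of its group in both ES-LB types for both genes, yet no ES-LB library reached TB (log2 fold change −1.60, standard error 0.13, adjusted p = 2.08e-05, limma for Ldha, and log2 fold change −1.04, standard error 0.17, adjusted p = 0.000992, limma for Slc2a1). Vegfa, a hypoxia target, went the other way (log2 fold change 1.55 with adjusted p = 6.92e-05 by limma), as did Pfkp (1.63, adjusted p = 1e-16, limma). Most enzymes were nearer to TB in ES-HLB than in ES-FLB, where 10 genes were 2-fold or more lower in ES-FLB and 1 in ES-HLB, and 9 of the 20 were higher in ES-HLB than in ES-FLB at an adjusted p below 0.05 (11.8% of all genes).

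Outside the lists, the largest changes were single genes of varied function. Thy1, a surface glycoprotein of mesenchyme and neurons, had 88.5, 81.9 and 94.6 CPM in the ES-FLB libraries, 76.1, 74.1 and 72.8 CPM in ES-HLB and 0.132, 0.368 and 0.242 CPM in TB. Agtr2, the type 2 receptor of angiotensin, had 75.5, 74.7 and 82.0 CPM in the ES-FLB libraries, 79.9, 75.9 and 78.7 CPM in ES-HLB and 0.526, 0.123 and 0.362 CPM in TB. Both were near the floor in TB and similar in ES-FLB and ES-HLB (log2 fold changes against TB 6.78 and 6.58, adjusted p = 4.95e-34 and 1.61e-30, limma). Pcdh10, a protocadherin, had 156, 179 and 191 CPM in the ES-FLB libraries, 238, 244 and 242 CPM in ES-HLB and 1.97, 1.23 and 1.93 CPM in TB. Apob, the apolipoprotein of visceral yolk sac and liver, had 38.1, 25.7 and 30.6 CPM in the ES-FLB libraries, 174, 249.95 and 200.3 CPM in ES-HLB and 0.263, 0.123 and 0.846 CPM in TB. Apob was higher in ES-HLB than in ES-FLB (log2 fold change 2.71, adjusted p = 0.000889, limma). The gene a (agouti, a regulator of coat colour) had 27.7, 26.0 and 27.1 CPM in the ES-FLB libraries, 46.3, 42.2 and 48.4 CPM in ES-HLB and 0, 0 and 0.121 CPM in TB. Its exons share 147 bases with those of Raly on the same strand. Xist, the RNA that silences 1 X chromosome, had 0.129, 0.830 and 0.387 CPM in the ES-FLB libraries, 0.269, 1.04 and 0.631 CPM in ES-HLB and 103, 506 and 130.1 CPM in TB. TB replicate 2 was the highest, and no ES-LB library passed 1.04 CPM (log2 fold change −7.57, standard error 0.58, adjusted p = 1.72e-05, limma). The part of sex in the level of Xist was not tested. Slc4a1, the anion exchanger of red cells, was the remaining large decrease (log2 fold change −6.32 with adjusted p = 3.3e-29 by limma). Pcdh10 and Apob showed log2 fold changes of 6.56 and 6.55 (adjusted p = 2.58e-18 and 3.39e-07, limma).

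ES-FLB and ES-HLB differed from each other in 3257 of the 13784 genes (23.6%), which is the test of whether their distances to TB differ. There were 102 genes with the types on opposite sides of TB, each side past the threshold, and 76 of them had a group mean of at least 16 CPM. The 5 with the largest difference were Hoxa5, Hoxb5, Aldh1a2, Foxf2 and Foxl1, and in each ES-FLB was above TB and ES-HLB below. Foxf2 (GRCm38, chromosome 13, 31625816 to 31631406), a forkhead gene of gut and limb mesenchyme, had 31.3, 36.3 and 44.4 CPM in the ES-FLB libraries, 4.30, 5.22 and 6.31 CPM in ES-HLB and 11.1, 9.21 and 11.8 CPM in TB. Foxl1, a forkhead gene of gut mesenchyme, had 13.3, 17.7 and 25.2 CPM in the ES-FLB libraries, 2.69, 3.13 and 3.15 CPM in ES-HLB and 5.92, 5.65 and 6.28 CPM in TB. TB lay between the types without overlap for both. For Foxf2 the log2 fold changes against TB were 1.75 and −0.96 in ES-FLB and ES-HLB (adjusted p = 7.79e-13 and 3.65e-07, limma), and for Foxl1 1.53 and −0.89 (adjusted p = 2.03e-09 and 3.97e-05, limma). For Aldh1a2 the mean of both types had a log2 fold change of −0.19 (adjusted p = 0.00274, limma), which lost its call without TB replicate 1 (adjusted p = 0.0658, limma), and the means of Foxf2 and Hoxa5 lost theirs without TB replicate 2 (0.0524) and TB replicate 3 (0.0526). For Foxl1 the mean did not pass (log2 fold change 0.32 with adjusted p = 0.0568 by limma), but did without ES-FLB replicate 1 (adjusted p = 0.0116, limma) or ES-HLB replicate 1 (adjusted p = 0.0433, limma).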

How the data were processed

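Poly(A) RNA was sequenced with a stranded single-end kit. Per the submitters' processing notes, the tools were FastQC 0.11.5, HISAT2 2.0.4, Cufflinks 2.1.1, Cuffdiff and edgeR 3.16.2. According to the methods, HISAT2 aligned the reads to mm10 with RefSeq gene models, Cuffdiff counted them on the UCSC transcriptome of that build, and edgeR took these counts to estimate variability and test differences. The authors deposited 1 table of CPM, counts of a gene per 1000000 reads, whose columns sum to the same total in all 27 libraries, so composition was not corrected between libraries. Low values were whole multiples of the worth of 1 read in over 94% of cases (within 0.02 read), which gave the depths, but the values were not turned back into counts.

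CPM of the 9 libraries were scaled by trimmed means of log ratios (30% of ratios and 5% of intensities trimmed). Genes with 1 CPM in at least 3 libraries were fitted on log2(CPM + 0.5) with limma 3.58.1 in R 4.3.3 (trend and robust), with 3 groups in 1 model and Benjamini-Hochberg adjustment over 13784 genes. ES-LB mean is the average of both types. Figures were drawn with matplotlib 3.10.9. The procedure was run on simulated data with a fixed spread in which few genes were changed. As 78.9% of genes were called here, that run does not measure false calls or the scaling in these data. The members and gene lists were chosen with earlier results of these data known, and so was the rule for named genes, which takes all list genes, the markers Hand2 and Hoxb9, the 10 largest changes in each direction without overlap among genes of at least 16 CPM, and the 5 genes with the largest difference between types that lie on opposite sides of TB. Dusp4, Fgfr1 and the other genes described are members of the lists. Of 435 list genes 434 were in the table and 418 were tested. Some genes that the rule names are not reported here. Positions and promoters are from RefSeq (GRCm38.p6). By the exons of the GENCODE annotation, 41 of the 442 named genes share exon bases with another gene, 13 of them on the same strand. Alternatives were another scaling, filter, pseudocount, variance model, sample set and a replicate block, and leaving out each library. Replicate numbers of the labels were shared between groups, but same-numbered libraries deviated together with r below 0.1 in every pair, so no pairing was used. The other 18 libraries entered only the values given for imprinted genes and 1 alternative.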

Additional observations from a re-analysis of the deposited data

Results flagged for a closer look

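The 2 ES-LB types differed in their distance to TB, by the test of ES-HLB against ES-FLB, in 3257 genes. Among the named genes on opposite sides of TB, this difference was a log2 fold change of −3.15 for Hoxa5, −2.72 for Hoxb5, −2.71 for Foxf2, −2.45 for Aldh1a2 and −2.42 for Foxl1, each negative value meaning a lower level in ES-HLB than in ES-FLB. In all 5 genes each ES-FLB library was above and each ES-HLB library below every TB library. No sample was tested as an outlier, since each group had 3 libraries.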

How the results depend on the processing

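Over 21 alternatives, 12 of which left out a library, no result changed its direction while called. Of 426 named genes, 368 were tested under every alternative, and 347 of these kept their call in each. The other 58 fell below the filter in at least 1 alternative, and 55 of them kept their call wherever they were tested. Losses and gains were 68 and 18 single values. The number of genes called between the ES-LB mean and TB was 9358 to 11905 over the other settings and 10016 to 10745 with a library left out. The counts of genes 2-fold or more higher and lower in ES-HLB than in ES-FLB, 394 and 264, moved to 232 and 159 with a filter of 5 CPM and to 175 and 143 with a pseudocount of 2, both of which remove or compress low genes. With CPM as deposited the median of all genes moved by 0.027 on the log2 scale. The model of all 27 libraries ended the calls of the ES-LB mean for Aldh1a2, Foxf2, Hoxa5, Hoxb3, Hoxb5 and Meox2, and the cause was not tested. Leaving out a TB library with 1 CPM required in 2 libraries was an alternative chosen after seeing the data. With a replicate block, 10947 genes were called between the ES-LB mean and TB, 10598 for ES-FLB, 10369 for ES-HLB and 3480 between the types, against 10876, 10501, 10288 and 3257 without it, and of the genes named with values it changed the calls of Isl1 (adjusted p = 0.0788, limma), Foxl1 (0.0431) and Hoxb2 (0.0492). Each ES-FLB library correlated best with the ES-HLB library of its own number (r = 0.048 to 0.068) and with the TB library of its own number (r = 0.015 to 0.061). No ES-HLB library did so with TB (r = −0.038 to 0.0099 for equal numbers). This is a hint from the data and not from the design. Depth limits genes under about 1 CPM, where 3 reads are worth 0.362 to 0.447 CPM.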
